A study of Mus musculus with 4 samples.

Results

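Glutathione transferases join the tripeptide glutathione to reactive, electrophilic compounds, and busulfan, an alkylating drug that depletes the germ line, is cleared mainly as such a conjugate. Alpha-class enzymes carry most of that conjugation in liver, while mu, pi and theta classes have overlapping substrates and the microsomal transferases belong to a separate family of membrane proteins. The 10 genes described here were chosen by name and all were found among the 18419 genes of the table: Gsta3 and Gsta4 (alpha), Gstm1, Gstm2, Gstm5 and Gstm6 (mu), Gstp1 (pi), Gstt1 (theta), and Mgst1 and Mgst3 (microsomal). They were measured as mRNA in testis cells. Enzyme activity and the amount of busulfan were not measured, so the data do not show clearance of the drug by any of them.

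The cells came from male ICR mice, an outbred stock, and were measured by droplet single-cell RNA sequencing with unique molecular identifiers (UMIs), which count captured transcripts. There were 4 groups with 1 library in each. A0 was the vehicle control, which received water, A10 received alginate oligosaccharides (AOS) by gavage at 10 mg/kg each day, B0 received a single busulfan injection of 40 mg/kg at 3 weeks of age and no AOS, and BA10 received the same injection and then AOS at 10 mg/kg. The AOS dosing lasted 2 or 5 weeks, since the sources differ. Each library held the combined cells of 6 mice, freed from the testis tissue by enzyme digestion, so the spread between animals is unknown, no test between groups was possible, and all intervals below (95%, exact) cover counting error only.

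The libraries held 3778 to 9682 cells, and the lowest UMI count of a cell differed between them: 7687 (A0), 6716 (A10), 2985 (B0) and 9013 (BA10). B0 thus held cells with fewer UMIs than any cell of the other libraries, and how the cells of each library were chosen is not settled by the sources used here. Values are therefore also given for cells with at least 9013 UMIs, called the common UMI limit, which 448 of 4659 B0 cells and all 3778 BA10 cells reached. B0 also stood apart in its cells: Leydig-like cells, the steroid-making cells between the tubules, made up 63.1% of B0, 3.41% of BA10 and under 0.1% of A0 and A10 (0.0559% and 0.0826%). At the common UMI limit 21 of the 448 B0 cells were Leydig-like, so it changes the cell mix of B0 as well as its depth. A cluster left unnamed, led by haemoglobin genes, held 503 B0 cells with a median of 9863 UMIs. As that median lies above the limit, this cluster gave most of the 448 cells, while 53 of them were SPC-like (spermatocytes). Values of B0 at the limit therefore describe mainly that cluster. Any 2 libraries shared 31 to 135 cell barcodes.

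The 4 mu-class genes lie in 1 stretch of 122.2 kb on mouse chromosome 3 (107895821 to 108017973, GRCm38), Gstm5 on the plus strand and Gstm1, Gstm2 and Gstm6 on the minus strand. Gsta3 and Mgst3 are on chromosome 1, Gsta4 on chromosome 9, Gstp1 on chromosome 19, Gstt1 on chromosome 10 and Mgst1 on chromosome 6, and all 10 are annotated as protein-coding genes. Upstream sequences are shown for Gstm5, which was the leading transcript of the family in spermatocytes and spermatids below, and for Gsta3, Gstm1 and Gstm2, which were among its leading transcripts in Leydig-like cells. They are RefSeq sequences of GRCm38.p6, 5′ to 3′ on the strand of the gene, cut before the first exon that GENCODE M21 gives there. Capitals mark matches to TGACNNNGC (the antioxidant response element, bound by Nrf2) or TGANTCA (the AP-1 site), each searched on both strands.
Gstm5, chr3:107895604-107895820, plus strand, 217 bases: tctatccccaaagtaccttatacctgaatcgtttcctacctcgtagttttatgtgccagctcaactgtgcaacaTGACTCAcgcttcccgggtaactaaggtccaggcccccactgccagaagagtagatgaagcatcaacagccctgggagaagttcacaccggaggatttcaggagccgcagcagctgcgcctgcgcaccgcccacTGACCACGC
Gstm1, chr3:108017974-108018223, minus strand, 250 bases: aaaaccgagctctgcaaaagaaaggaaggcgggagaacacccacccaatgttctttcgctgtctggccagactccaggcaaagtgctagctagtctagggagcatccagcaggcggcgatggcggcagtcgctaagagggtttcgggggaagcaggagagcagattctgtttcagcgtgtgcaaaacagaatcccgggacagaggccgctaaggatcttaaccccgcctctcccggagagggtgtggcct
Gstm2, chr3:107986454-107986670, minus strand, 217 bases: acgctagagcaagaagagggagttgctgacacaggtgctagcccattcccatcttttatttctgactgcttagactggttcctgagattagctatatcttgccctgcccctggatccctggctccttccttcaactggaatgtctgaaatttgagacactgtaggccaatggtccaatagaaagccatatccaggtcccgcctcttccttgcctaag
Gsta3, chr1:21240335-21240584, plus strand, 250 bases: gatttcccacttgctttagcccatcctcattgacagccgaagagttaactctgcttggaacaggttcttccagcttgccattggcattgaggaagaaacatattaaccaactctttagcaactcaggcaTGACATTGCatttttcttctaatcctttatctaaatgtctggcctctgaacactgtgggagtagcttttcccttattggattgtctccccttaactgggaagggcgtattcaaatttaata

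Of the 10 genes, 9 had a promoter in the RefSeq table, with 13 annotated starts. TGACNNNGC occurred in the 250 bases before a start of 3 of them (Gsta3, Gstm5 and Mgst1), and in 10.2% of all 32851 windows of that length. TGANTCA occurred for 2 of them, Gstm5 and Gstp1, and in 6.75% of all windows. The Mgst1 match and most of the Gstp1 match lie downstream of the start that GENCODE gives for the gene. In Gstm5 the first motif ends 34 bases and the second 170 bases before the RefSeq start. Neither AAGGTCA, the site of the steroidogenic factor NR5A1, nor TGACGTCA, the cAMP response element, occurred in any of the 13 windows, against 4.08% and 1.55% of all windows. These are matches of letters, and no binding was measured.

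Reads near the 3′ end can come from more than 1 gene of such a family. The reads are stated as 150 bases, and words of 98 and of 150 bases were compared because the length used in counting was not given in the sources used here. Over the last 500 bases of the coding transcripts, 67.7% of the 98-base words of Gstp1 also occurred in Gstp2 or the pseudogene Gstp-ps, 9.03% of those of Gstm1, 1.23% of those of Gstm2 and 3.20% of those of Gstm6 occurred in another gene, and none of the words of Gsta3, Gsta4, Gstm5, Gstt1, Mgst1 or Mgst3 did. With words of 150 bases the share was 54.4% for Gstp1 and 0 for the other 9 genes. Values of Gstp1 are therefore uncertain in the share of reads that could be placed.

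Levels over whole libraries are given as UMIs scaled to 1000000 UMIs of a library (CPM), which count transcripts by their 3′ ends and do not depend on gene length. Gstm5, a mu-class enzyme known from testis and brain, was the leading transcript of the family in 3 libraries. Its levels were 3891 CPM for A0 (586862 UMIs), 3959 for A10, 1506 for B0 and 4242 for BA10, which made it the 9th, 10th, 71st and 7th most abundant of all genes, respectively. The first, second and last of these levels lie close together and B0 lies apart from them. The deep cells of B0, those at the common UMI limit, had 3587 CPM of Gstm5, close to the other libraries. Most of these deep cells were of the unnamed cluster led by haemoglobin genes, which had 3727 CPM in B0. A Gstm5 UMI was found in every A0 and A10 cell, in 99.97% of BA10 cells and in 81.7% of B0 cells.

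For the other mu-class genes B0 was the highest library and not the lowest. Gstm1, a broad conjugating enzyme of liver and other tissues, had 10.4 CPM (A0), 13.1 (A10), 6502 (B0) and 367 (BA10). It was the 3rd most abundant of all genes in B0. Gstm2, its close relative, had 6.13, 6.81, 2157 and 111 CPM in A0, A10, B0 and BA10. Both genes were thus low in the libraries without busulfan, highest in B0 and between the 2 in BA10. Gstm6 had 3.31, 4.01, 119.7 and 22.1 CPM in the same order of libraries.

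The alpha-class genes were also highest in B0 and next highest in BA10. Gsta3, which conjugates aflatoxin epoxide and other toxins, had 0.723 CPM (A0), 0.661 (A10), 665 (B0) and 25.7 (BA10). Gsta4, whose preferred substrate is the lipid peroxidation product 4-hydroxynonenal, had 7.88, 8.5, 426 and 33.9 CPM. Gsta3 was near absent from the libraries without busulfan, with 109 and 95 UMIs in all cells of A0 and A10.

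Gstp1, the pi-class enzyme, had 0.411 CPM (A0), 0.619 (A10), 137 (B0) and 4.42 (BA10). Gstt1, the theta-class enzyme that acts on small halogenated compounds, was the lowest of the 10, with 0.119, 0.139, 39.3 and 2.55 CPM. Among the microsomal enzymes, Mgst1, which protects membranes from oxidized lipids, had 1.87, 2.23, 1067 and 44.6 CPM. Mgst3, which also makes leukotriene C4, had 24.6, 30.1, 75.4 and 38.4 CPM and spanned the narrowest range of the 9 genes that were highest in B0. The neighbours A0 and A10 differed by less than counting error for Gsta3, Gsta4 and Gstt1, while for all 10 genes B0 and BA10 differed from each other and from A0 beyond counting error.

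**Figure D1:**
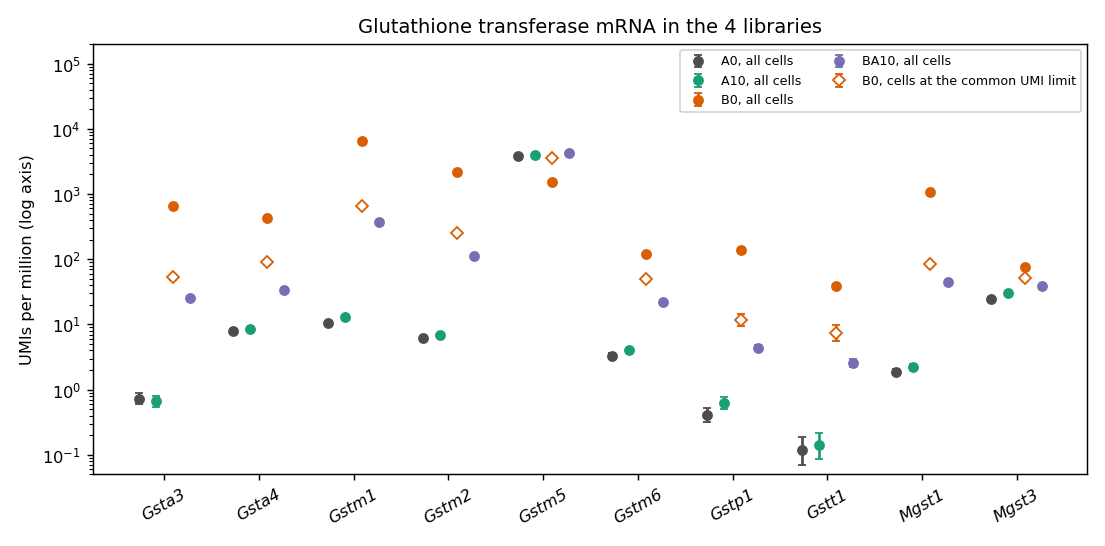
CPM (log axis) of the 10 glutathione transferases in the 4 libraries, with 95% counting intervals; open diamonds are the 448 B0 cells at the common UMI limit. Gstm5 lies between 1506 and 4242 in all libraries, and the other 9 genes are highest in B0.

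Together the 10 genes gave 0.395% (A0), 0.403% (A10), 1.27% (B0) and 0.489% (BA10) of all UMIs. Gstm5 made up 98.6% of this pool in A0, 98.4% in A10 and 86.7% in BA10. In B0 it made up 11.9%, Gstm1 51.2%, Gstm2 17.0% and Mgst1 8.40%.

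Busulfan was compared with the control as B0 over A0, on log2 ratios of CPM with 1 CPM added, and 2-fold or more was taken as a call because 1 library a group allows no test. Of the 10 genes, 9 were called higher and 1, Gstm5, lower, where 39.2% of 11154 genes tested were called higher and 23.3% lower. Genes were tested if a UMI was seen in at least 5% of the cells of either library. The median log2 ratio of the 10 genes was 6.10, against 0.32 for all genes tested. Gstm1 was 623-fold higher in B0 (593 to 655), Mgst1 570.5-fold (507 to 644), Gstm2 352-fold (330 to 376), Gsta4 54.0-fold (50.9 to 57.4) and Mgst3 3.07-fold (2.90 to 3.24). Gsta3 was 920-fold higher (762 to 1121), from 109 UMIs in A0. Folds here and below are ratios of CPM with nothing added. With 1 CPM added the log2 ratio of Gsta3 (8.59) was below that of Gstm1 (9.15). Gstm5 was at 0.387 of its A0 level (0.383 to 0.391). Of all calls, 62.7% were higher, and 42.6% with median-of-ratios size factors, a scaling under which 8 of the 10 genes were called higher and 1 lower, with 29.3% and 39.5% of all genes.

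At the common UMI limit the same comparison gave smaller ratios. The cell mix of B0 also differs there, with 21 Leydig-like cells among 448, against 63.1% of all B0 cells. Most of the 448 were of the unnamed cluster led by haemoglobin genes. The calls were 9 higher and 0 lower, with 21.4% of genes tested called higher and 10.6% lower, and the median log2 ratio was 3.54. Gstm1 was then 67.3-fold higher (63.3 to 71.5), Gsta3 81.1-fold (64.3 to 103), Mgst1 47.0-fold (40.5 to 54.7) and Mgst3 2.08-fold (1.86 to 2.32), and Gstm5 was at 0.929 of its A0 level (0.917 to 0.941).

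BA10 over B0 asks how the genes stood when AOS followed busulfan. It shares B0 with the comparison above, so the 2 sets of values are not independent. Of the 10 genes, 8 were called lower and 1, Gstm5, higher, where 35.7% of 11147 genes tested were called lower and 17.8% higher, and the median log2 ratio was -3.88 against -0.26 for all genes. Gstp1 was 31.1-fold lower in BA10, Gsta3 25.9-fold, Mgst1 23.9-fold, Gstm2 19.4-fold and Gstm1 17.7-fold. Gsta4 was 12.6-fold lower, Gstt1 15.4-fold and Gstm6 5.41-fold, Mgst3 was at 0.509 of its B0 level (0.482 to 0.539) without reaching a call, and Gstm5 was 2.82-fold higher (2.79 to 2.85). Higher calls were 33.3% of all calls, 51.4% with size factors and 43.7% with cells weighted equally, and the counts for the 10 genes were 8 lower and 1 higher under each, where 28.7% and 37.3% of all genes were called lower.

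At the common UMI limit, where 21 of the B0 cells were Leydig-like, the ratios between BA10 and B0 were nearer to 1. Most B0 cells at the limit were of the unnamed cluster led by haemoglobin genes. Of the 10 genes, 6 were called lower and 0 higher, where 16.5% of genes tested were called lower and 0.995% higher, and the median log2 ratio was -1.07. Gstm1 was 1.78-fold lower (1.73 to 1.84), Gsta3 2.04-fold (1.82 to 2.28), Gsta4 2.63-fold (2.40 to 2.87), Mgst1 1.87-fold (1.71 to 2.04) and Gstt1 2.91-fold (2.11 to 3.96), while Gstm5 was 1.18-fold higher (1.17 to 1.20). The number of cells per class and the level per cell both enter these sums, and the classes are taken apart below.

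Against the control, which it shares with the first comparison, BA10 had 8 genes called higher and 0 lower, where 16.7% of 10534 genes tested were called higher and 18.2% lower, and at the common UMI limit again 8 higher and 0 lower, with 16.0% and 18.4% of all genes. The median log2 ratio of the 10 genes was 2.2 over all cells and 2.28 at the limit, against 0.38 and 0.37 for all genes tested. Gstt1 was seen in under 5% of cells of both libraries, so 9 of the 10 were among the genes tested, and as Gstt1 is one of the 8 called, 7 of those 9 were called. Higher calls were 47.8% of all calls and 27.4% with size factors, with 8 of the 10 genes higher under both, where 8.08% of all genes were with size factors. With 10 CPM added Gstp1 and Gstt1 were no longer called, where 4.18% of all genes were called higher. Gsta3 was 35.6-fold (29.3 to 43.5) and Gstm1 35.2-fold (33.5 to 37.0) higher in BA10 than in A0, Mgst1 23.8-fold (21.1 to 27.0) and Gstm2 18.1-fold (16.9 to 19.4). Mgst3 was 1.56-fold (1.49 to 1.64) and Gstm5 1.09-fold (1.09 to 1.09) higher, both short of a call. With size factors Gstm5 was lower in BA10 than in A0, so its direction depends on the scaling.

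Without busulfan, AOS moved none of the 10 genes by 2-fold. A10 over A0 had 0 of the 10 called in either direction, where 0.0443% of 9024 genes tested were called higher and 0.0665% lower (0.0433% and 0.0757% at the common UMI limit), and the median log2 ratio was 0.15, against -0.03 for all genes tested, and 0.06 at the limit. Of the 10 genes, 4 (Gsta3, Gstp1, Gstt1 and Mgst1) were seen in under 5% of cells of both libraries and were outside the genes tested. Gstp1 had the highest fold, 1.51 (1.08 to 2.12), from 62 UMIs in A0 and 89 in A10. With 1 CPM added its log2 ratio (0.20) was below those of Gstm1 (0.30), Mgst3 (0.28) and Gstm6 (0.22). Gstm1 was 1.25-fold higher in A10 (1.17 to 1.34), Mgst3 1.22-fold (1.17 to 1.28), Gstm6 1.21-fold (1.07 to 1.37), Mgst1 1.19-fold (1.011 to 1.40), Gstm2 1.11-fold (1.013 to 1.22) and Gstm5 1.02-fold (1.014 to 1.021). These intervals lie above 1, but with 1 pool of mice a group it is unknown whether 2 pools of the same group would differ as much.

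**Figure D2:**
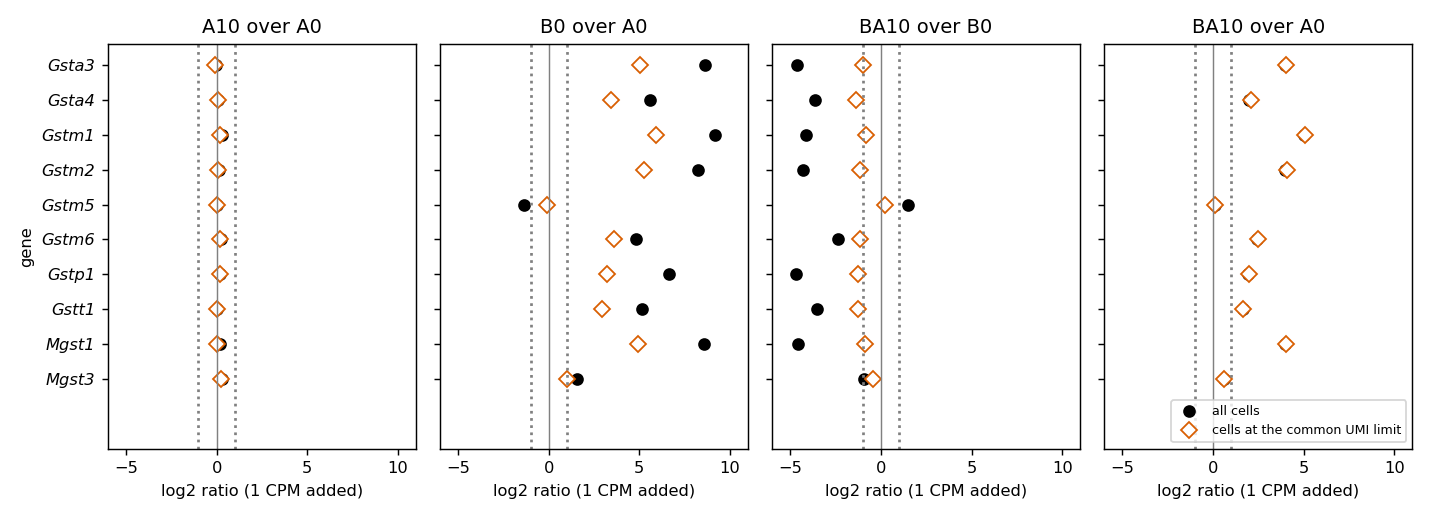
Log2 ratios of CPM (1 CPM added) of the 10 genes in 4 comparisons of libraries, over all cells (black points) and over cells at the common UMI limit (open diamonds), with dotted lines at 2-fold. For B0 over A0 the median is 6.10 over all cells and 3.54 at the limit, for BA10 over B0 -3.88 and -1.07, while the 2 sets lie close together in the other comparisons.

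To see which cells held these transcripts, clusters were made with the 10 genes left out and named from marker genes. Germ-cell classes are written SPG-like for spermatogonia, SPC-like for spermatocytes and ST-like for spermatids, and the somatic ones by cell type. A class was used in a library where it had at least 50 cells. Leydig-like cells of B0 (2938 cells, median 4050 UMIs) carried the highest level of 5 of the 10 genes among all classes (Gsta3, Gstm1, Gstm2, Gstt1 and Mgst1). They had 11246 CPM of Gstm1, 3672 of Gstm2, 1837 of Mgst1, 1191 of Gsta3, 631 of Gsta4, 218 of Gstp1, 112 of Gstm6, 90.0 of Mgst3, 65.3 of Gstt1 and 572 of Gstm5. A UMI of Gstm1 and of Gstm2 was found in all of them, of Mgst1 in 99.4% and of Gsta3 in 93.2%. The 10 genes were 1.96% of the class's UMIs, and Gstm1 was 57.3% of that pool and Gstm5 2.91%.

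SPC-like and ST-like cells held mostly Gstm5. In SPC-like cells of A0 (3032 cells, median 12164 UMIs) Gstm5 had 3941 CPM and made up 99.0% of the pool. The next was Mgst3 with 25.1 CPM, followed by Gstm1 with 5.21, Gsta4 with 2.85, Gstm2 with 2.71 and Gstm6 with 1.51, and the other 4 were under 1 CPM (Mgst1 0.744, Gsta3 0.213, Gstp1 0.124 and Gstt1 0.0532). ST-like cells of A0 (5733 cells) had 3865 CPM of Gstm5, 0.981 of the SPC-like level (0.975 to 0.986). Between these 2 germ classes 3 of the 10 genes were called higher in spermatids and 0 lower, where 24.8% of 9823 genes tested were called higher and 39.7% lower. Of the 10, 6 passed the 5% filter, and the 3 called were among them. Gsta4 was 3.70-fold higher in ST-like cells (3.13 to 4.4), Gstm6 2.87-fold (2.26 to 3.67) and Gstm2 2.60-fold (2.17 to 3.12), and Mgst3 stood at 0.974 (0.911 to 1.04).

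Among the germ clusters made up almost wholly of A0 and A10 cells (0 to 11, 13 and 14), the minor genes other than Mgst3 and Gstt1 shared their extremes. They were lowest in SPC-like cluster 2 and highest in ST-like cluster 9, which was led by the protamines Prm1 and Prm2 of late spermatids. Of these clusters, cluster 2 also had the highest median UMIs per cell (34729) and cluster 9 the lowest (9206.5). Depth and cell stage cannot be told apart in these extremes, and the part of depth was not tested. Gsta4 had 1.45 CPM in cluster 2 and 29.2 CPM in cluster 9, and Gstm1 3.39 and 19.5 CPM. Gsta3 and Gstp1 rested on 3 UMIs and 1 UMI in cluster 2. Mgst3 was highest in ST-like cluster 13 (47.3 CPM), low in cluster 9 (6.60 CPM) and lowest in ST-like cluster 7 (5.65 CPM). Cluster 13 was named ST-like on a score of 0.233, close to 0.228 for the next class. Gstm5 was between 3229 CPM (cluster 8) and 5601 CPM (cluster 9).

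SPG-like cells reached 50 cells in B0 alone (238 cells, median 4081 UMIs) and had 247 CPM of Gstm5, 9.52-fold less than the SPC-like cells of the same library (8.38 to 10.9). Their pool was 40.3% Gstm1, 18.3% Gstm2, 13.0% Gstm5, 9.63% Gsta4 and 7.86% Gstm6. RNA of other cells is read as present beside these values. Insl3, the Leydig-cell gene used below as a marker of it, was found in 58.4% of these SPG-like cells at 229 CPM. The 9 Sertoli and 8 Leydig markers summed to 2352 and 730.0 CPM. An unnamed cluster with many of the same leading genes (Stra8, Hells, Ncl, Ptma, Cenpa) was found in the other libraries, with 137 (A0), 115 (A10) and 116 cells (BA10) against 8 in B0. Its Gstm5 level was 3752 CPM (A0), 3749 (A10) and 4064 (BA10), near the level of each whole library, and macrophage-like cells of BA10 also had 3996 CPM. The part of RNA from other cells was not tested for either the SPG-like cells or this cluster.

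Sertoli-like cells of B0 (197 cells), the nurse cells of the germ line, shared Gstm1 and Gstm2 with Leydig-like cells as the most abundant of the 10 (36.2% and 17.5% of the pool) and differed in the levels of the genes. They had the highest Gsta4 of any class, 1052 CPM, and the highest Gstm6, 811 CPM, which were 1.67-fold (1.55 to 1.79) and 7.24-fold (6.60 to 7.94) the Leydig-like levels. Gstm1 (2652 CPM) and Gstm2 (1280 CPM) were 4.24-fold (4.07 to 4.42) and 2.87-fold (2.70 to 3.05) lower than in Leydig-like cells, and Gsta3 (65.9 CPM) was 18.1-fold lower (13.9 to 23.9). Gstp1, at 266 CPM, was 1.22-fold the Leydig-like level (1.06 to 1.40).

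**Figure D3:**
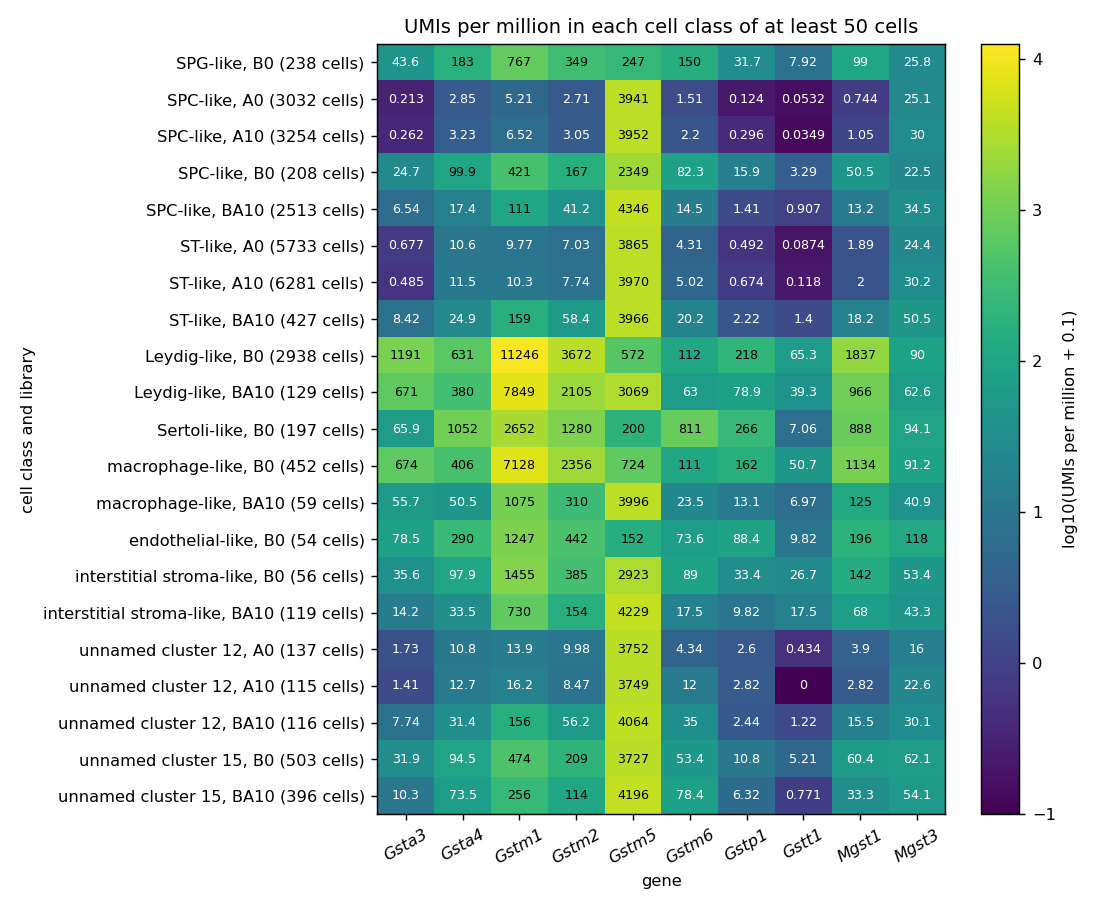
CPM of each gene (columns) in each cell class and library with at least 50 cells (lines of the grid), printed in the squares and coloured by the log10 of CPM plus 0.1. Gstm5 is 2349 or more in all SPC-like and ST-like classes, and Gstm1 reaches 11246 in Leydig-like cells of B0.

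The class levels are read as carrying RNA from other cells of the same droplet library. Insl3, a hormone gene of Leydig cells, was used as a marker of it. Free RNA and droplets with more than 1 cell were not told apart. An Insl3 UMI was found in 64.9% of SPC-like cells of B0 (median 5098.5 UMIs, 162 CPM), 60.6% of SPC-like cells of BA10 (median 21341 UMIs, 40.5 CPM) and 0.858% of SPC-like cells of A0 (0.461 CPM), against all Leydig-like cells of B0 (11850 CPM). Insl3 is not a germ-cell gene, so its UMIs there are read as background. A UMI of Gstm1 was found in 91.3% of SPC-like cells of B0 and 90.6% of those of BA10, and one of Mgst1 in 36.1% and 28.9%. The Gstm1 shares were above the Insl3 shares and the Mgst1 shares below them, and neither is read as expression without the ratios that follow.

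If all UMIs of a gene in a class came with Insl3 from Leydig cells, its ratio to Insl3 would be that of the Leydig-like cells of the library. In SPC-like cells of BA10 the ratio was 1.02 times the Leydig-like ratio for Gstm1, 0.981 for Mgst1, 0.699 for Gsta3, 1.28 for Gstp1, 1.40 for Gstm2 and 1.66 for Gstt1. It was 3.28 for Gsta4, 16.5 for Gstm6, 39.6 for Mgst3 and 102 for Gstm5. Thus 6 genes were within 2-fold of the Leydig-like proportion and 4 were above it. The reference itself differed between libraries: Leydig-like cells had 11246 CPM of Gstm1 beside 11850 CPM of Insl3 in B0, and 7849 beside 2907 CPM in BA10, while SPC-like cells had 421 beside 162 CPM and 111 beside 40.5 CPM. The ratios of B0 and BA10 therefore rest on different references and are not compared with each other. In another clustering, at resolution 0.5, Leydig-like cells of BA10 numbered 49 instead of 129. The ratios to Insl3 were not taken again there. In SPC-like cells of B0 the ratios were 1.52 for Gsta3, 2.01 for Mgst1, 2.74 for Gstm1, 3.34 for Gstm2, 3.69 for Gstt1 and 5.34 for Gstp1, and they were 11.6 for Gsta4, 18.3 for Mgst3, 53.8 for Gstm6 and 300.5 for Gstm5.

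Gsta4 and Gstm6 were both higher in Sertoli-like than in Leydig-like cells, and their ratio to each other was 0.771 Gstm6 UMIs per Gsta4 UMI in Sertoli-like cells (0.697 to 0.852). It was 0.824 in SPC-like cells of B0 (0.659 to 1.03) and 0.832 in those of BA10 (0.763 to 0.906), against 0.177 in Leydig-like cells of B0 (0.168 to 0.188) and 0.528 in SPC-like cells of A0 (0.401 to 0.691). In SPC-like cells of A10 it was 0.681 (0.539 to 0.859), an interval that overlaps that of the Sertoli-like cells as well as that of A0, so the ratio does not set the busulfan libraries apart from both others. The summed level of 9 Sertoli markers was 26.3 CPM in SPC-like cells of A0, 1315 CPM in those of B0 and 185 CPM in those of BA10, with 9 of 9 detected in each. The 8 Leydig markers summed to 3.70, 443 and 125 CPM in the same 3 classes, with 7 of 8 detected in A0, where Lhcgr was at 0, and 8 of 8 in B0 and BA10. Their part in the class levels below was not tested beyond these ratios.

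**Figure D4:**
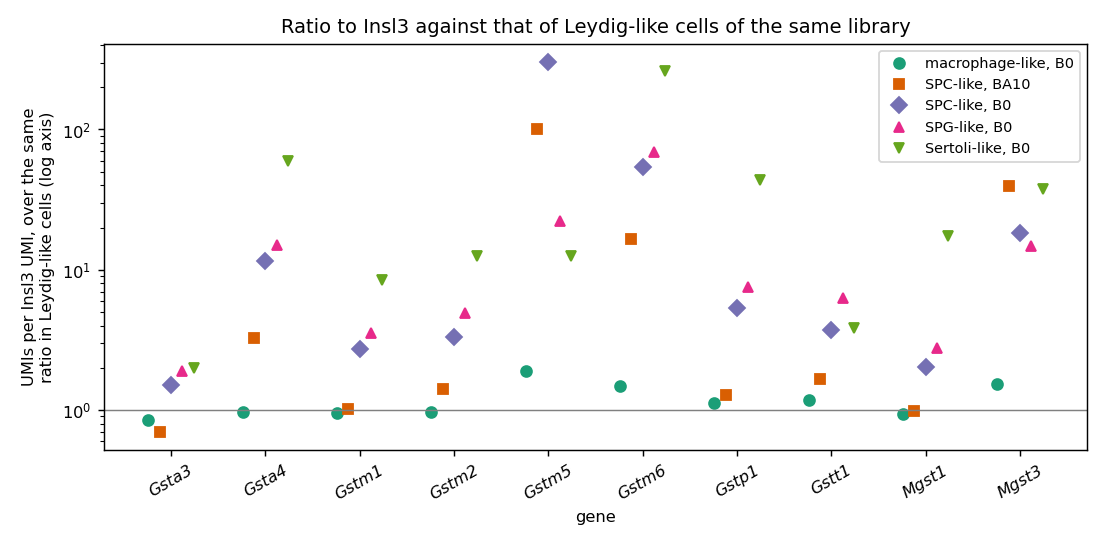
UMIs of each gene per Insl3 UMI in macrophage-like, SPC-like, SPG-like and Sertoli-like cells, divided by the same ratio in Leydig-like cells of the library (log axis, 1 marks an equal ratio). Macrophage-like cells of B0 lie near 1 for all genes (0.853 to 1.91), SPC-like cells of BA10 lie near 1 for Gsta3, Gstm1, Gstm2, Gstp1, Gstt1 and Mgst1, and Gstm6 lies at 259 in Sertoli-like cells.

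Within SPC-like cells 8 of the 10 genes were called higher in B0 than in A0 and 0 lower, where 31.2% of 10023 genes tested were called higher and 21.6% lower, and the median log2 ratio was 4.56. Gstt1, one of the 8, did not pass the 5% filter, so 7 of the 9 that passed were called. Gstm1 had 421 CPM in B0 and 5.21 in A0, Gstm2 167 and 2.71, Gsta4 99.9 and 2.85, and Gstm6 82.3 and 1.51. Mgst1 had 50.5 and 0.744 CPM, Gsta3 24.7 and 0.213, Gstp1 15.9 and 0.124 and Gstt1 3.29 and 0.0532. Gstm5 had 2349 CPM in B0 and 3941 in A0, and Mgst3 22.5 and 25.1 CPM (0.898 of the A0 level, 0.641 to 1.22). The 208 cells of B0 were mostly in cluster 22 (196 cells) while those of A0 were in clusters 0, 1, 2, 5 and 6 but for 1 cell, so the class is not made of the same cells in both.

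In SPC-like cells of BA10 7 of the 10 were called higher than in A0 and 0 lower, where 3.50% of 9827 genes tested were called higher and 10.1% lower, and the median log2 ratio was 2.44. Gstp1, one of the 7, and Gstt1 did not pass the 5% filter, so 6 of the 8 that passed were called. Gstm1 had 111 CPM in BA10, Gstm2 41.2, Gsta4 17.4, Gstm6 14.5, Mgst1 13.2, Gsta3 6.54, Gstp1 1.41 and Gstt1 0.907. Gstm5 (4346 CPM) was 1.10-fold the A0 level (1.10 to 1.11) and Mgst3 (34.5 CPM) 1.38-fold (1.29 to 1.47). They were mainly in clusters 26 (1426 cells), 24 (671) and 22 (407), which held 1 cell of A0 in all. A10 against A0 had 0 of 10 genes called within SPC-like cells, where 4 passed the filter and 0.0447% of 8951 genes tested were called higher and 0.0782% lower. It also had 0 of 10 within ST-like cells, where 6 passed and 0.0602% of 8307 genes were called higher and 0.0722% lower. The median log2 ratios were 0.17 and 0.09. Within ST-like cells of BA10 over A0 the median was 1.58, against 0.39 for 9685 genes tested. Of the 427 ST-like cells of BA10, 387 were in cluster 21, which held 2 cells of A0. Cluster 21 was named ST-like on a score of 0.231, close to 0.205 for the next class, so the class is not made of the same cells in both. In the clustering at resolution 0.5, 139 cells of BA10 were ST-like, and this median was not taken again there. Insl3 in ST-like cells was 54.4 CPM in BA10 and 0.644 in A0, and its part was not tested.

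Between the busulfan libraries, SPC-like cells of BA10 had 8 of the 10 genes called lower than those of B0 and 0 higher, where 32.3% of 10014 genes tested were called lower and 16.3% higher. Gstt1, one of the 8, did not pass the 5% filter. The median log2 ratio was -1.88, against -0.31 for all genes. Gstm1 was at 0.264 of its B0 level (0.245 to 0.285), Gstm2 at 0.246, Gsta3 at 0.265, Mgst1 at 0.262 and Gstt1 at 0.275. Gsta4 was at 0.174 (0.149 to 0.205), Gstm6 at 0.176 and Gstp1 at 0.0887. Gstm5 was 1.85-fold higher (1.80 to 1.91) and Mgst3 1.53-fold (1.13 to 2.14). Insl3, at 162 CPM in B0 and 40.5 in BA10, was lower in the same direction, and its part in these ratios was not tested.

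Leydig-like cells of B0 over SPC-like cells of B0 had 8 of 10 genes called higher and 1, Gstm5, lower, where 29.0% of 9757 genes tested were called higher and 34.9% lower. Both classes are from 1 library, with 1 UMI limit. The median log2 ratio was 3.82. Gsta3 was 48.2-fold higher in Leydig-like cells (36.0 to 66.1), Mgst1 36.4-fold (29.7 to 45.1), Gstm1 26.7-fold (24.9 to 28.7) and Gstm2 21.9-fold (19.6 to 24.6), while Gstm6 was 1.36-fold higher (1.15 to 1.62) and Gstm5 4.11-fold lower (3.95 to 4.27).

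Leydig-like cells of BA10 (129 cells, median 12386 UMIs) had 1 of the 10 genes called lower than in those of B0, Gstp1, and 1 called higher, Gstm5, where 25.3% of 11226 genes tested were called lower (2837 genes) and 30% higher (3370 genes). The median log2 ratio of the 10 genes was -0.77, against -0.14 for all genes tested. Gstm1 had 7849 CPM, 0.698 of the B0 level (0.687 to 0.709), Gstm2 2105 CPM (0.573), Mgst1 966 CPM (0.526), Gsta3 671 CPM (0.563) and Gstp1 78.9 CPM (0.362). Gstm5 was 5.37-fold higher (5.19 to 5.54), at 3069 CPM, and Insl3 was 2907 CPM against 11850 CPM. The cells were in different clusters: 82 of the 129 BA10 cells were in cluster 19, led by Ptgds and Gstm1, and 2911 of the 2938 B0 cells in cluster 25, led by Insl3. Gstm5 was the main transferase transcript of SPC-like and ST-like cells, and the part of germ-cell RNA in these values was not tested.

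Macrophage-like cells of B0 (452 cells) had 0 of 10 genes called against Leydig-like cells in either direction, where 13.5% of 8637 genes tested were called higher and 0.347% lower, and a median log2 ratio of -0.53. Insl3 was found in 92.0% of them at 7860 CPM, and the ratios of the 10 genes to Insl3 were 0.853 to 1.91 times those of Leydig-like cells. Their levels, such as 7128 CPM of Gstm1, are therefore not read as expression by macrophages. In BA10 (59 cells) 9 of the 10 were called lower than in the macrophage-like cells of B0 and 1, Gstm5, higher, where 38.6% of 11574 genes tested were called lower and 28.1% higher, with a median log2 ratio of -2.82. Insl3 was also lower, at 374 CPM in BA10, and the Leydig markers summed to 17394 CPM in B0 and 1197 in BA10. Their part in these calls was not tested. Interstitial stroma-like cells of BA10 had 6 of 10 called lower than those of B0 and 0 higher, where 28.2% of 11409 genes were called lower and 6.51% higher, with a median of -1.16. Insl3 was 194 CPM in these cells of B0 and 54.6 in those of BA10, and the Sertoli markers summed to 1235 and 229 CPM. The part of such RNA in the calls was not tested.

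**Figure D5:**
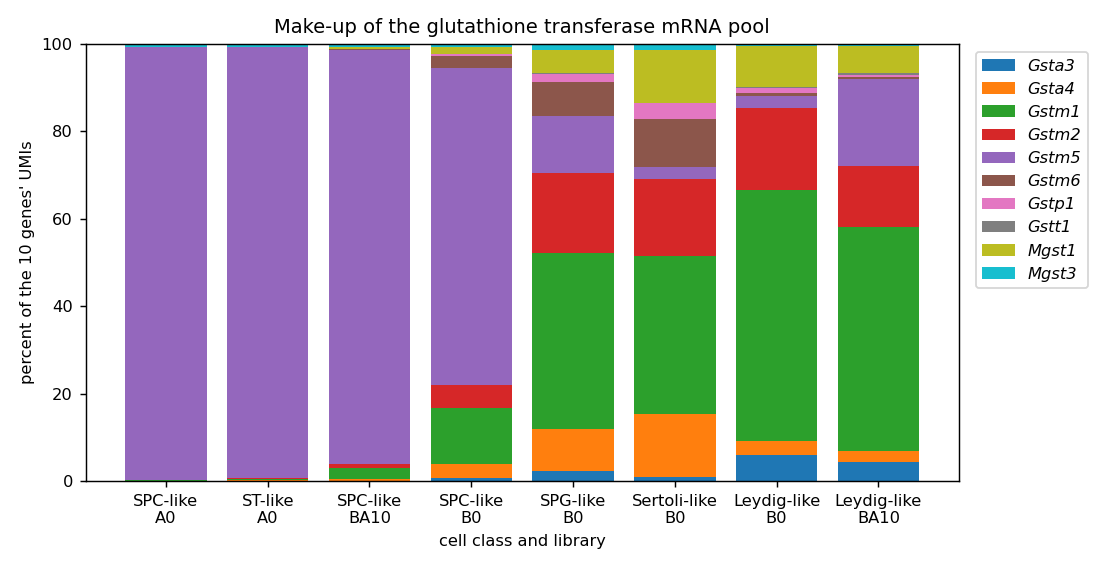
Percent of the 10 genes' UMIs that each gene contributed, in 8 combinations of class and library. Gstm5 makes up 99.0% in SPC-like cells of A0, 94.7% in those of BA10 and 72.6% in those of B0, and Gstm1 makes up 57.3% in Leydig-like cells of B0.

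Over the 27 clusters, log2 CPM of the other 9 genes was positively correlated in each pair (Pearson's r 0.48 to 0.99) and that of Gstm5 negatively with each of them. Pearson's r of log2 CPM with Gstm5 was between -0.79 (Gstp1) and -0.49 (Mgst3). It was 0.99 between Gstm1 and Gstm2 and 0.91 between Gsta3 and Gsta4. The 3 genes most like Gsta3, among 12829 searched, were Hsd3b1, a steroid-making enzyme, Ephx1 and Ass1 (r = 0.996, 0.995 and 0.995). For Gstm1 they were Acsbg1, Gstm2 and Akr1cl, for Gstm2 Mgst1, Gstm1 and Tst, and for Mgst1 Gstm2, Acsbg1 and Mgarp (r = 0.990 to 0.995). For Gstm6 they were Cst12, Defb19 and Wfdc10 (0.992 each), and for Gstm5 Phkg2, 1700003E16Rik and Bspry (0.978, 0.976 and 0.976). The least closely matched was Mgst3, with Ginm1, Acyp2 and Smim11 (0.956, 0.911 and 0.899). Clusters share libraries and free RNA, so these values describe the table and are not independent observations.

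The rest of the pathway was read from lists of other transferases, glutathione synthesis, glutathione breakdown, conjugate export and Nrf2 genes. In B0 over A0, 9 of 17 other transferases were called higher and 3 lower, 5 of 7 synthesis and recycling genes higher and 0 lower, 6 of 12 breakdown genes higher and 1 lower, 4 of 6 export genes higher and 0 lower, and 8 of 11 Nrf2 regulators and targets higher and 1 lower. Over all genes tested 39.2% were called higher and 23.3% lower. The lists, here and in the comparisons below, were counted without the 5% filter of the genes tested. Their calls thus include genes outside those tested, such as Ggt5, with 112 UMIs in B0 and 9 in A0. At the common UMI limit the genes called higher were 6, 2, 3, 1 and 5, where 21.4% of all genes were. In A10 over A0 0 genes of the 5 lists were called, and Gss, a synthesis gene, came nearest, 1.92-fold higher (1.78 to 2.08). In BA10 over A0 the counts called higher were 4, 1, 1, 1 and 1, and those called lower 4, 0, 1, 0 and 2, with 16.7% and 18.2% of all genes. In BA10 over B0 the counts called lower were 9, 5, 5, 4 and 10 and those called higher 1, 0, 1, 1 and 0, with 35.7% and 17.8% of all genes. At the common UMI limit only 2, 1, 0, 0 and 3 were called lower and 0 of any list higher, with 16.5% and 0.995% of all genes, so most of the lower calls were not made there.

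By name, Gstk1, a mitochondrial kappa-class enzyme, had 0.159 CPM in A0, 81.7 in B0 and 2.87 in BA10, and its highest class was Leydig-like cells of B0 (143 CPM). Gsta2, the alpha-class relative of Gsta3, had 1.0, 60.5 and 9.81 CPM. Slc3a2, the shared heavy chain of amino acid transporters that include the cystine carrier, had 17.5, 695 and 60.0 CPM, and Hmox1, the haem oxygenase and a known Nrf2 target, 0.411, 51.5 and 2.63 CPM. Nfe2l2, which encodes Nrf2, had 6.15 CPM in A0, 90.9 in B0 and 3.58 in BA10. In the B0 cells at the common UMI limit these levels were lower: 6.41 CPM for Gstk1, 13.4 for Gsta2, 68.2 for Slc3a2, 8.60 for Hmox1 and 15.2 for Nfe2l2.

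Of the listed transferases outside the 10, Gstt4, a theta-class gene, was highest in A0 with 926 CPM, ahead of Gsto2 at 334. In BA10 Gsto2 was highest, at 281 CPM against 166 for Gstt4. Gstt4 had 99.8 CPM in B0, and 1384 CPM in ST-like cells of A0 against 174 in SPC-like cells. Gstcd had 24.5 CPM in A0, 2.21 in B0 and 1.53 in BA10. Srxn1, which repairs oxidized peroxiredoxins, had 54.4 CPM in A0, 82.1 in ST-like cells of A0, 13.1 in B0 and 3.66 in BA10. Abcc3, an exporter of conjugates, had 70.7 CPM in A0, 41.2 in B0 and 175 in BA10. Abcc1, another exporter, had 0.776 CPM in A0 and 19.0 in B0. It was at 134 CPM in Sertoli-like cells of B0, a class with 0 cells in A0.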

How the data were processed

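The authors counted UMIs with Cell Ranger 2.2.0 against mm10, per the submitters' processing notes, and deposited natural log values, each the log of 1 plus the UMI share of the gene scaled to 10000 per cell. UMIs were recovered from them, and 100% of values above 0 came out whole within 0.001. Barcodes were assigned to libraries by the prefix of their column. The 10 genes and the marker and pathway lists were chosen with earlier results of these data known.

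UMIs were summed per library or class and scaled to 1000000 (CPM). Sums carry exact Poisson intervals, ratios exact conditional intervals and shares exact Clopper-Pearson intervals (95%), for counting error only. Calls are log2 ratios, with 1 CPM added, of at least 2-fold, while printed folds are ratios of CPM with nothing added. Clusters came from Scanpy 1.11.5 and the Leiden algorithm at resolution 1 on 2000 variable genes without the 10 genes, with no alignment of libraries. A class was named from at least 3 markers detected in at least 10% of a cluster's cells, by a scoring rule set after the data were seen, and a cluster whose leading genes marked another class stayed unnamed. The pathway genes named were taken from the 2 with the largest absolute ratio of each list and comparison, and Gsto2 was added as the highest of its list in BA10. The most alike genes had the highest Pearson's r of log2 CPM over clusters. Doublets were kept. Scrublet called 7.91% (A0), 7.69% (A10) and 1.24% (BA10) of cells, and 4 of 4659 cells of B0. How well it worked in B0 was not tested, so doublets there may be uncalled. Alternatives were another pseudocount, size factors, equal weights for cells, the common UMI limit, no doublet calls, no filter, other clusterings and thinning. Scripts were tested on simulated counts and used Python 3.11.15, numpy 2.4.6 and scipy 1.17.1.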

Additional observations from a re-analysis of the deposited data

Results flagged for a closer look

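For 6 of the 10 genes the AOS contrast pointed one way without busulfan and the other way after it, each beyond counting error, and the difference was not tested because each group is 1 library. The log2 ratios of BA10 over B0, with those of A10 over A0 second, were -4.14 and 0.30 for Gstm1, -4.27 and 0.13 for Gstm2, -2.38 and 0.22 for Gstm6, -4.67 and 0.20 for Gstp1, -4.55 and 0.17 for Mgst1, and -0.96 and 0.28 for Mgst3. Among 11614 genes compared in the same way, 25.7% also pointed opposite ways beyond counting error, and 15.6% of 11604 at the common UMI limit. At that limit the directions were again opposite beyond counting error for Gstm1, Gstm6, Gstp1 and Mgst3 and no longer for Gstm2 and Mgst1. B0 held 63.1% Leydig-like cells and BA10 3.41%, and the UMI limits of the libraries differed, so the cell mix and AOS cannot be told apart here.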

How the results depend on the processing

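No paired analysis was possible because each group has 1 library. With 5 other settings, the log2 ratios of the 10 genes kept their direction in 49 of 50 values for BA10 over A0 and in 50 of 50 for each of the other comparisons. The exception was Gstm5 with size factors, which was then lower in BA10 than in A0. The median log2 ratio of the 10 genes in B0 over A0 (6.10) was 5.40 with size factors, 4.22 with 10 CPM added and 3.54 at the common UMI limit, where the count of genes called lower went from 1 to 0. In BA10 over B0 (-3.88) it was -3.36 with size factors, -3.55 with cells weighted equally, -3.33 with 10 CPM added and -1.07 at the common UMI limit, where the count called higher went from 1 to 0. In BA10 over A0 (2.2) it was 2.01 with size factors, 2.50 with cells weighted equally and 1.28 with 10 CPM added. In A10 over A0 (0.15) it was 0.06 at the common UMI limit and 0.05 with 10 CPM added.

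Size factors moved the median of all genes from 0.32 to -0.45 in B0 over A0, from -0.26 to 0.22 in BA10 over B0 and from 0.38 to 0.11 in BA10 over A0, and the members' median less that of all genes was 5.78 and 5.85, -3.61 and -3.59, and 1.82 and 1.90. Over the same genes, B0 over A0 had 23.6% higher and 10.2% lower at the limit and 39.5% lower with size factors. BA10 over B0 had 0.951% higher and 15.4% lower at the limit, 30.3% higher with size factors and 28.9% with cells weighted equally, and higher calls were 5.82% of all calls at the limit. BA10 over A0 had 8.08% higher with size factors, and 4.18% higher and 11.3% lower with 10 CPM added. With no filter on low values, the share of genes past 2-fold was 51.3% instead of 62.5% for B0 over A0, 44.3% instead of 53.5% for BA10 over B0 and 22.3% instead of 34.8% for BA10 over A0.

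Class medians between B0 and BA10 were not taken again with other clusterings. Those taken again were SPC-like cells of B0, BA10 and A10 over A0 and ST-like cells of A10 over A0. Leydig-like over SPC-like cells of B0 and ST-like over SPC-like cells of A0 were also taken again. These medians kept their direction, also with a clustering that kept the 10 genes among the variable genes and was chosen after seeing the data. With 10 CPM added they were 2.13 for SPC-like cells in B0 over A0, 0.89 for SPC-like cells in BA10 over A0, 2.84 for Leydig-like over SPC-like cells of B0 and 0.11 for ST-like over SPC-like cells of A0. SPC-like cells at the common UMI limit gave 3.80 in B0 over A0, from 53 cells of B0. Leydig-like over SPC-like cells of B0 has no value there, with 21 Leydig-like cells left. Thinned to 2500 UMIs, the median over the 10 genes of the share of cells with a UMI was 1.43% (A0), 1.51% (A10), 63.7% (B0) and 8.73% (BA10), against 6.64%, 6.58%, 76.0% and 37.6%. Gstt1 had the fewest UMIs of the 10 genes in A0, 18.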

Other observations

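An unnamed cluster led by haemoglobin genes (Hba-a1, Hbb-b1) and the cystatins Cst12 and Cst9 held 503 cells of B0 and 396 of BA10. This cluster scored highest for spermatocytes, but its leading genes included the Sertoli markers Aard, Defb36 and Rhox8, so it stayed unnamed. Its Gstm5 levels were near those of SPC-like and ST-like cells of A0, 3727 CPM in B0 and 4196 in BA10, with Gstm1 at 474 and 256 CPM. Gstm6 was 78.4 CPM and Gsta4 73.5 CPM in its BA10 cells, where SPC-like cells of that library had 14.5 and 17.4 CPM. In B0 the order was the other way for Gstm6, at 53.4 CPM against 82.3 CPM. Gsta4 there, at 94.5 CPM (86.9 to 102) against 99.9 CPM (85.9 to 116), did not differ beyond counting error. The 9 Sertoli markers summed to 934 CPM in the BA10 cells of the cluster against 185 CPM in SPC-like cells, and to 1068 CPM against 1315 CPM in B0. Interstitial stroma-like cells had 1455 CPM of Gstm1 in B0 (56 cells) and 730 CPM in BA10 (119 cells), 7.92 and 4.96 times the level that the Leydig-like ratio to Insl3 gives. Gstt1 was 26.7 and 17.5 CPM in them, 25.04 and 23.7 times that level. Gstm5 was 2923 and 4229 CPM in these cells, 55.8% and 79.5% of the pool, so they also held the transcript that led in SPC-like and ST-like cells.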
